A study of Mus musculus with 4 samples.

Results

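The genes described here encode the proteins of the cytosolic and the mitochondrial ribosome. They were taken from the deposited expression table by symbol: Rpl or Rps followed by a digit for the cytosolic set, with the Rps6k kinases left out, and Mrpl or Mrps followed by a digit for the mitochondrial set. Of 9997 distinct symbols, 74 matched, 39 cytosolic and 35 mitochondrial. The cytosolic set held 31 core ribosomal protein genes, 5 paralogs (Rpl3l, Rpl7l1, Rpl10l, Rpl36al and Rpl39l), 2 pseudogenes (Rpl31-ps12 and Rps15a-ps6) and Rps19bp1, which encodes a nucleolar protein that binds Rps19 and is no ribosomal protein. The table used here covers chromosomes 1 and 10 to 18, where the GENCODE annotation has 42 protein-coding genes that match the cytosolic letters, 37 of them in the table, and 38 that match the mitochondrial letters, 35 of them in the table. Ribosomal protein genes of other chromosomes, including Rpl10, Rpl36a and Rpl39, were not analysed here.

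RNA was sequenced from embryoid bodies, floating balls of differentiating cells, made from ES-E14TG2a, an embryonic stem cell line of the mouse. The 4 libraries were the only ones of their groups: control embryoid bodies, and embryoid bodies given all-trans retinoic acid (ATRA) and labelled 0, 6 and 10 days. ATRA, a vitamin A derivative used to direct such cells towards neurons, was added at 5 µM on culture days 4 and 6, and after 8 days the aggregates were moved from suspension to dishes coated with polyornithine and laminin. The culture day of the control is not given, so ATRA, culture age and culture format cannot be told apart. With 1 library per group there is no spread between replicates and no test, and every difference below describes these libraries.

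A ribosome is built from ribosomal RNA and a fixed set of ribosomal proteins, arranged in a large and a small subunit. Cytosolic ribosomes are assembled in the nucleolus, and their protein messengers are among the most abundant of a growing cell; many begin with a run of pyrimidines, the terminal oligopyrimidine or TOP tract, through which nutrient signals control their translation. Mitochondrial ribosomes make only the respiratory chain subunits encoded in mitochondrial DNA, but all of their proteins are encoded in the nucleus, made in the cytosol and imported.

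Levels are FPKM, fragment numbers divided by transcript length and by library size, and are set side by side between genes with a limit. Among the most abundant members are short transcripts (Rps29 390 bases, Rps28 437, Rpl41 582), and the least abundant core gene, Rpl15, has 1922 bases. The part of transcript length in the ranking of levels was not tested. Differences are on log2(FPKM + 1), and the threshold for a call was 2-fold. In all, 5885 genes reached 1 FPKM in at least 1 library, and 73 of the 74 members were among them; the exception was Rps15a-ps6, which lay between 0.229 and 0.602 FPKM. Estimated depth ranged from 24500000 fragments (control) to 27300000 (10 days). Counting error alone gave the difference of a typical cytosolic member a 95% margin of 0.02 on either side and that of a typical mitochondrial member 0.09 to 0.10; variation between cultures is not covered. The summed level of 6 pluripotent cell markers was 2116 FPKM in the control and 149 to 249 FPKM in the ATRA libraries, where Pou5f1 still stood at 97.4 to 150 FPKM. Sums of 4 epithelial keratins (131 FPKM in the control, then 283, 1929 and 3397 FPKM), 4 endoderm markers (16.9, 40.5, 448 and 707 FPKM), 6 heart and muscle markers (1.94, 3.17, 57.3 and 242 FPKM) and 5 neuronal markers (7.77, 9.41, 69.4 and 33.7 FPKM) also differed between libraries. At 10 days Tnnc1 (217 FPKM) and Hand1 (17.5 FPKM) held most of the heart and muscle sum. Tnnt2, Myh7, Myh6 and Actn2 stood at 3.09, 3.33, 0.624 and 0.133 FPKM there, and Actn2 was at 0.132 FPKM in the control. No marker was listed at 0. The part of this mixture in the results below was not tested, and in such bulk RNA fewer cells of a type and less RNA per cell cannot be told apart.

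The cytosolic and mitochondrial sets took different courses. Where 4 values follow each other below, they are in the order control, 0 days, 6 days and 10 days. The median core cytosolic gene stood at 3074, 2539, 2444 and 3302 FPKM, and the median mitochondrial gene at 54.9, 34.7, 50.4 and 59.5 FPKM. The mitochondrial median was thus lowest at 0 days, whereas the cytosolic median stayed low through 6 days. Both medians were highest at 10 days. At 6 days, as deposited, 26 of 35 mitochondrial genes were below their control level, with a summed FPKM 80.8% of the control. So were 24 of 31 core cytosolic genes, with 89.5%. Median-ratio and upper-quartile scaling divide the control by 1.10 and 1.07 and the 6-day library by 0.969 and 0.955. Both raise 6-day levels relative to the control, so these counts and sums depend on scaling. They were not recomputed. The median core cytosolic level was 56.0, 73.3, 48.5 and 55.5 times the median mitochondrial level. Summed FPKM of the mitochondrial set was 2.78%, 1.89%, 2.51% and 2.16% of that of the core cytosolic set, lowest at 0 days.

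**Figure D1:**
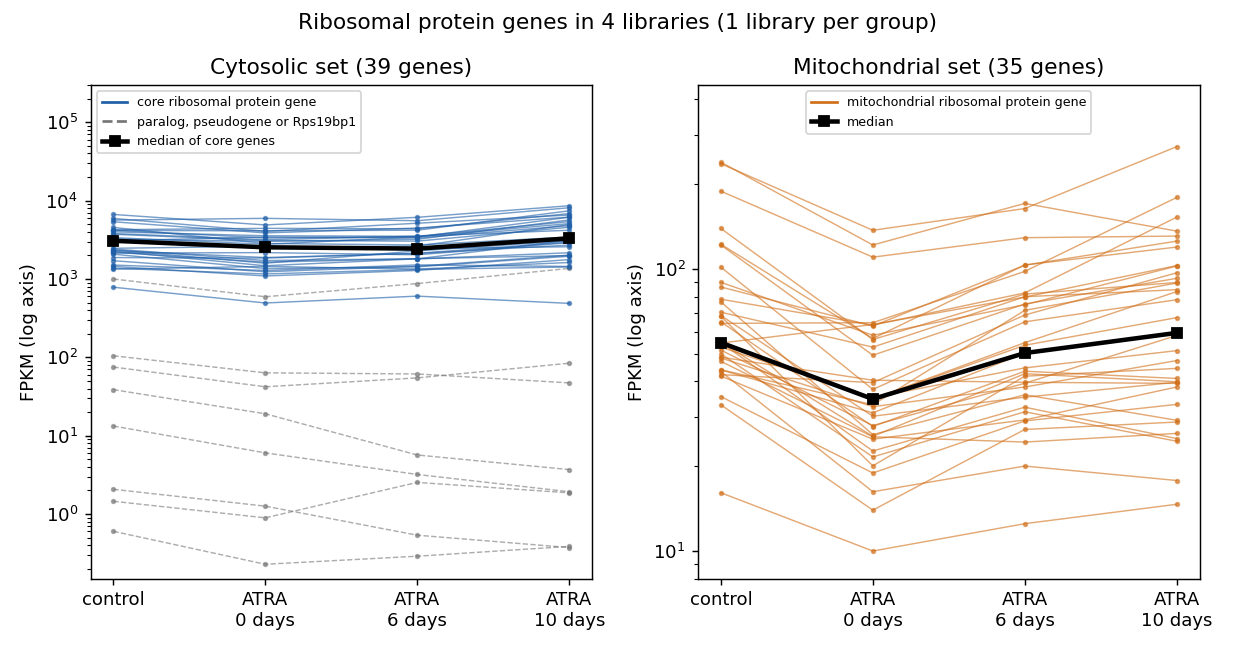
FPKM of every member (log axes) in the control and in the ATRA libraries at 0, 6 and 10 days, with 1 library per group. Thin lines are genes (left panel: 31 core cytosolic genes in blue, 8 other members dashed; right panel: 35 mitochondrial genes) and black squares the median of the core cytosolic genes, 3074 to 3302 FPKM from control to 10 days, or of the mitochondrial genes, 54.9 to 59.5 FPKM. The dip of the mitochondrial median to 34.7 FPKM at 0 days is deeper than that of the cytosolic median.

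At 0 days against the control, 33 of 35 mitochondrial and 25 of 31 core cytosolic genes were lower, by medians of -0.78 and -0.28 (-0.38 over the 38 cytosolic members tested), beside -0.04 over all 5885 genes. The mitochondrial median minus the cytosolic one was -0.40 over the 38 cytosolic members and -0.50 over the core genes alone. Of the mitochondrial genes 13 were 2-fold or more lower and none higher, where 12.8% of all genes were lower and 12.2% higher by that much. No core cytosolic gene passed 2-fold in either direction in any of the 4 comparisons as deposited; with median-ratio scaling Rpl38 and Rps14 were 2-fold higher at 10 days than in the control. Other scalings shift this comparison: median-ratio scaling raises differences by about 0.17 and upper-quartile scaling by about 0.13, which left the mitochondrial median at -0.61 and -0.65, with 10 and 11 genes 2-fold lower. In the same order, 9.48% and 10.2% of all genes were 2-fold lower under these scalings. Both put Rps14, Rps15 and Rps27a, among the 25 lower core genes, above 0, and median-ratio scaling also Rpl26.

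From 0 to 6 days the mitochondrial set was higher by a median of 0.51, with 33 of 35 genes above 0, while the core cytosolic median was 0.09 and that of all genes 0.01. Mrps6 and Mrpl36 were 2-fold or more higher (8.22% of all genes were), and no mitochondrial gene was 2-fold lower (4.88%). From 6 to 10 days the order turned: the core cytosolic median was 0.47, with 29 of 31 genes above 0, and the mitochondrial median 0.21, with 27 of 35 above 0, beside 0.02 over all genes. No member of either set passed 2-fold in that step, where 3.7% of all genes were higher and 0.85% lower. At 10 days against the control, core cytosolic genes were higher by a median of 0.29, and the mitochondrial median was -0.13 as deposited but 0.054 after median-ratio scaling. In that comparison 3 mitochondrial genes were 2-fold higher (19.6% of all genes) and 4 lower (17.1%). The balance depended on scaling. It was 5 higher and 2 lower after median-ratio scaling (22.5% and 13.1% of all genes) and 4 and 3 after upper-quartile scaling (20.9% and 15.1%). The set's shares were 14.3% and 5.71%, and 11.4% and 8.57%. As deposited and under either scaling, they lay below those of all genes in both directions. All comparisons with the control share that 1 library, and successive steps share the library between them.

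**Figure D2:**
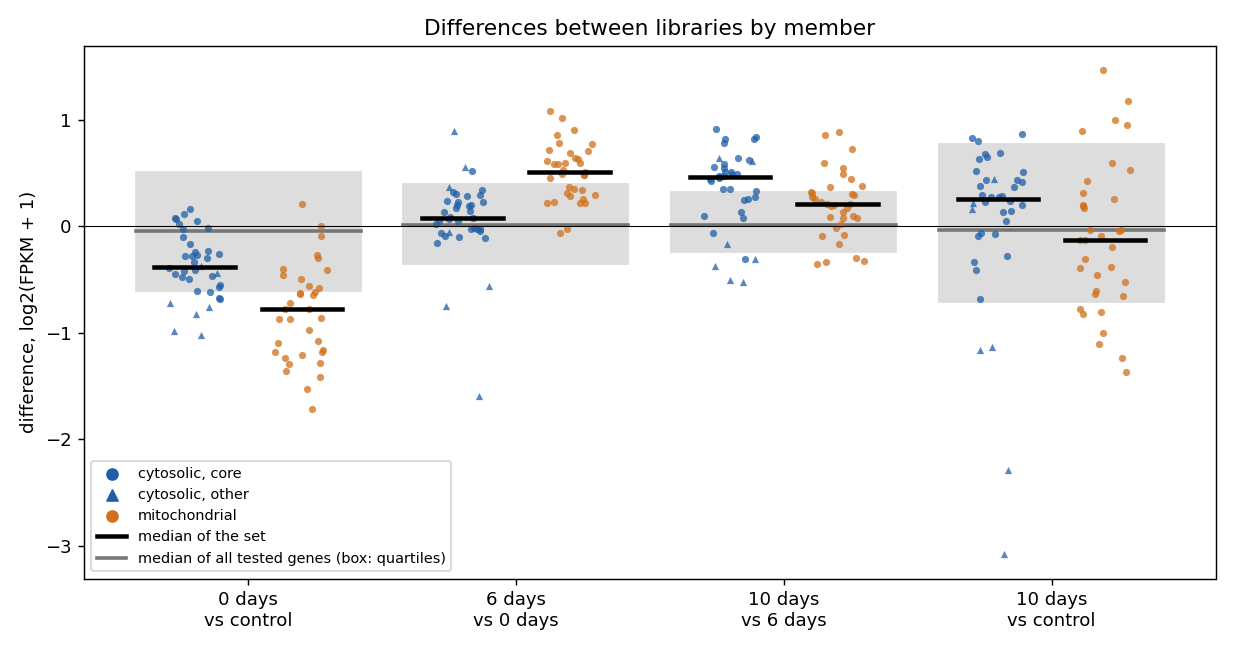
Difference of each tested member on log2(FPKM + 1) in the 4 comparisons, as points (blue circles: core cytosolic; blue triangles: paralogs, Rpl31-ps12 and Rps19bp1; orange: mitochondrial), with the median of each set as a black line. Grey lines and boxes give the median and quartiles of all 5885 tested genes. Mitochondrial members lie lowest at 0 days (median -0.78) and above 0 at 6 days (median 0.51); the cytosolic median is largest from 6 to 10 days (0.46 over 38 members).

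Counted by extreme library, 31 of 35 mitochondrial genes (88.6%) and 20 of 31 core cytosolic genes (64.5%) were lowest at 0 days, as were 24.9% of all genes. Highest at 10 days were 24 core cytosolic genes (77.4%) and 13 mitochondrial genes (37.1%), beside 29.6% of all genes. In the control, 22 mitochondrial genes (62.9%) and 6 core cytosolic genes (19.4%) were highest, beside 38.2% of all genes.

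Among the core proteins of the cytosolic large subunit (18 genes), Rpl41, which encodes a peptide so short that it is little more than a basic tail, was the most abundant at 6670, 4898, 6128 and 8612 FPKM. Rpl38, whose loss in mice disturbs translation of Hox messengers and the axial skeleton, stood at 3374, 2776, 3432 and 6153 FPKM. Its level at 10 days was the largest departure upward of any core gene from the control, 1.82-fold (95% counting interval 1.80 to 1.85). At 0 days it stood at 0.823 of its control level (0.811 to 0.835). Rpl36 showed the largest step from 6 to 10 days, at 3080, 2539, 2627 and 4962 FPKM. Rpl19 had the largest core step from 0 to 6 days, at 2355, 1591, 2284 and 3070 FPKM.

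A few large subunit genes ran against the set. Rpl15, a constituent mutated in some patients with Diamond-Blackfan anaemia, was the least abundant core gene in every library, at 786, 494, 605 and 489 FPKM. As deposited it was the only core gene lowest at 10 days, but its 0-day level was almost the same. That ranking was not recomputed under other scalings. Rpl3, which reaches towards the peptidyl transferase centre, stood at 3245, 2479, 2444 and 2581 FPKM and so stayed near its 0-day level, and Rpl7 at 2418, 1720, 1816 and 1991 FPKM. Rpl23a and Rpl17, at the exit of the nascent chain tunnel, and Rpl23, on the face towards the small subunit, had the highest differences of the cytosolic set at 0 days against the control, at 0.16, 0.08 and 0.11. Rpl23a stood at 3074, 3439, 3345 and 4784 FPKM.

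Of the small subunit (13 core genes), Rps28 (5647, 5947, 5544 and 8115 FPKM) and Rps29 (5934, 4055, 5151 and 6558 FPKM) had the highest mean levels over the 4 libraries, with Rps26, Rps14 and Rps12 next and close together; the order differed between libraries. Rps28 and Rps29 are among the smallest proteins of the subunit, and Rps26 contacts messenger RNA at the exit channel. Rps14, the gene whose loss of a copy marks the 5q- form of myelodysplasia, stood at 4163, 4129, 4196 and 7420 FPKM, level in the first 3 libraries and 1.78-fold its control level at 10 days (95% counting interval 1.77 to 1.80). Rps15, placed near the decoding region, had the same shape at 3239, 3027, 3212 and 5669 FPKM, and Rps26 stood at 4266, 4431, 4378 and 6839 FPKM. Rps2, at the entry of the messenger channel, was the only small subunit gene below its control level at 10 days, at 4552, 2841, 2719 and 3434 FPKM. Core medians of the subunits lay close together in each comparison: -0.40 for the large and -0.24 for the small at 0 days against the control, 0.47 and 0.47 from 6 to 10 days, and 0.29 and 0.28 at 10 days against the control. Kank3, which overlaps Rps28 on the other strand, was listed at 429, 337, 360 and 546 FPKM, and Syngr1, which overlaps Rpl3, at 59.8, 53.3, 71.3 and 146 FPKM; with no strand setting stated, reads of such pairs cannot be told apart. Cytosolic ribosomal proteins also have many near-identical processed pseudogenes, between which shared reads may be split.

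Start sites of core genes and paralogs are shown because the TOP tract lies at the first transcribed bases. Sequences are from RefSeq on GRCm38.p6, 15 bases on each side of the annotated start, 5′ to 3′ along the gene. Capitals mark the letters searched for on the gene's own strand: a C no more than 5 bases from the start and the pyrimidines that follow it, at least 4. Pyrimidines before that C are not marked. The windows shown with a run are those of Rpl15 (chr14:18270972-18271001, minus strand), Rpl38 (chr11:114668565-114668594, plus strand), Rpl35a (chr16:33056467-33056496, plus strand), Rps10 (chr17:27635230-27635259, minus strand) and Rps18 (chr17:33955651-33955680, minus strand). Other core genes with runs, such as Rpl19 (5 bases) and Rps26 (8 bases), are not shown. Rpl35a also has annotated starts without a run. The windows of the paralogs Rpl10l (chr12:66284387-66284416, minus strand), Rpl39l (chr16:10170213-10170242, plus strand), Rpl3l (chr17:24727811-24727840, plus strand) and Rpl7l1 (chr17:46782642-46782671, minus strand) have none by this rule. Rpl39l and Rpl10l have pyrimidine runs whose first C lies further upstream, and Rpl3l has a run further downstream.
Rpl15: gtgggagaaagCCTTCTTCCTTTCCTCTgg
Rpl38: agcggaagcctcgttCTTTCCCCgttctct
Rpl35a: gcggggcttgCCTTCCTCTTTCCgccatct
Rps10: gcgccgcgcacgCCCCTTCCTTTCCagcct
Rps18: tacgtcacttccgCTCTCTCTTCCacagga
Rpl10l: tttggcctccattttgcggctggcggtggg
Rpl39l: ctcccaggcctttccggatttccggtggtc
Rpl3l: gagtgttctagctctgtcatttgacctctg
Rpl7l1: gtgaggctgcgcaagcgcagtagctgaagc

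RefSeq promoters were matched for 60 members, and a gene was counted when any of its annotated starts matched. A run of this kind was present in 11 of 23 core cytosolic genes (47.8%), 0 of 5 paralogs and 9 of 30 mitochondrial genes (30%), beside 956 of 4019 tested protein-coding genes (23.8%) and 21.2% of all 27025 symbols with a promoter. Carrying the run did not go with 1 course: Rpl15 has a run of 17 bases and was lower at 10 days than in the control, and Rpl38 has one of 8 and was higher. In the 300 bases from 250 before to 50 after the start, searched on both strands, the ETS factor core CCGGAA was found in 14 of 23 core cytosolic (60.9%) and 18 of 30 mitochondrial genes (60%), beside 30.2% of tested coding genes. The palindrome of NRF-1 was in 2 core cytosolic and 2 mitochondrial genes (8.7% and 6.67%, beside 2.39%), and the YY1 letters AAGATGGCG in 1 and 5 (4.35% and 16.7%, beside 3.93%). The ERR element AAGGTCA was in 2 genes of each set (8.7% and 6.67%, beside 3.88%), and the E-box CACGTG in 2 of each (8.7% and 6.67%, beside 12.3%). These are matches of letters in the window and say nothing of binding; each motif was searched apart, and a promoter may hold several.

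The paralogs departed furthest from the cytosolic set. These are genes that arose as copies of a core gene and encode a version of the same protein, often used in few tissues. Of 5, all but Rpl36al were 2-fold or more lower at 10 days than in the control (17.1% of all genes were), Rpl7l1 no longer after median-ratio scaling (-0.95), and Rpl10l and Rpl39l were among the 3 lowest differences of the set in every comparison. Rpl10l, a retrogene copy of Rpl10 known from the testis, stood at 38.7, 19.1, 5.67 and 3.69 FPKM, each value below the one before it. It was at 0.0954 of its control level at 10 days (95% counting interval 0.0770 to 0.117, from 971 and 103 estimated fragments). Rpl39l, a copy of Rpl39, followed the same order at 13.3, 6.04, 3.20 and 1.93 FPKM, a ratio of 0.145 (0.101 to 0.200). At 0 days it was the only cytosolic member called lower against the control, by -1.02 (12.8% of all genes were lower), a call lost under median-ratio (-0.87) and upper-quartile scaling (-0.91); a pseudocount of 0.1 or 0.5 gave 2 members. From 0 to 6 days Rpl10l was the only one (4.88% of all genes), and 2 members were lower with a pseudocount of 0.1.

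Rpl3l, the form of Rpl3 used in heart and skeletal muscle, was near the limit of detection at 2.07, 1.26, 0.537 and 0.374 FPKM, a ratio of 0.180 at 10 days (95% counting interval 0.0934 to 0.322, from 70 and 14 fragments). Its lowest library was the one with the most RNA of the heart and muscle gene Tnnc1, which stood at 1.54, 2.05, 45.7 and 217 FPKM. The relation between them was not tested. Rpl7l1, found in precursors of the large subunit, stood at 104.8, 63.4, 61.4 and 47.2 FPKM, a ratio of 0.451 (0.432 to 0.470), while Rpl7 was at 0.824 of its control level. Rpl36al, a copy of Rpl36a, differed from the other 4 in course, at 1001, 594, 875 and 1366 FPKM, levels inside the range of core genes in every library. Reads of Rpl10l, Rpl36al and Rpl39l can be shared with their X-linked parents, so their levels are uncertain by an unknown amount. The pseudogene Rpl31-ps12 lay at 1.46, 0.895, 2.54 and 1.87 FPKM, where Rpl31 itself stood at 1507, 1286, 1514 and 1447 FPKM. Rps19bp1, at 75.2, 42.1, 54.7 and 84.2 FPKM, was lowest at 0 days and highest at 10 days, as most core genes were.

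**Figure D3:**
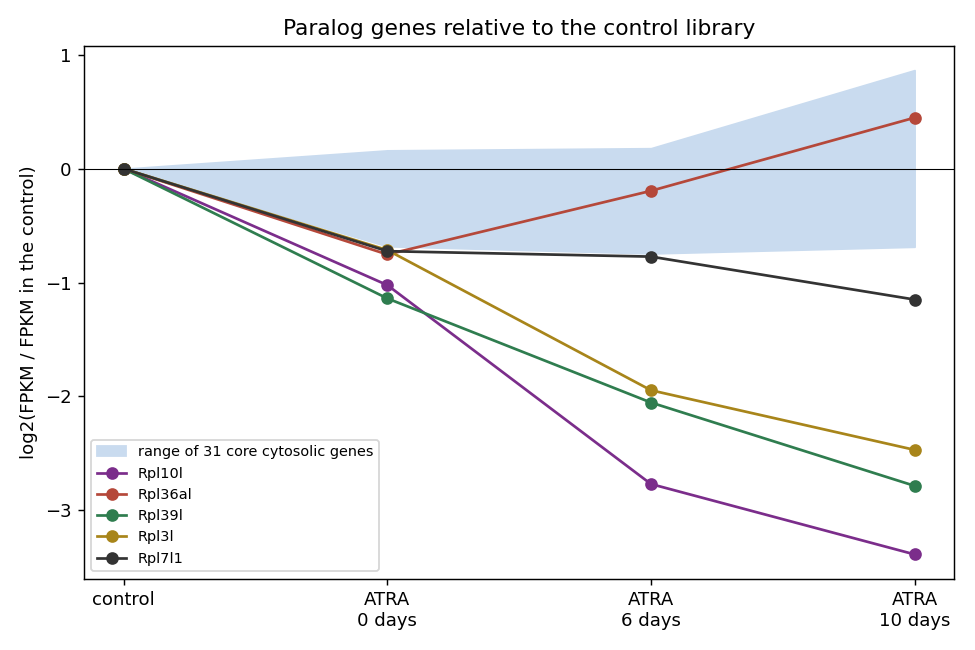
Level of the 5 paralogs relative to the control library, as log2 of the FPKM ratio without a pseudocount, in the 4 libraries. The shaded band spans the 31 core cytosolic genes. At 10 days Rpl10l, Rpl39l, Rpl3l and Rpl7l1 lie below the band, at 0.0954, 0.145, 0.180 and 0.451 of their control levels, and Rpl36al lies inside it at 1.37.

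In the mitochondrial large subunit (22 genes) the median was -0.86 at 0 days against the control, 0.56 from 0 to 6 days and 0.16 from 6 to 10 days. Mrpl13, the counterpart of a bacterial protein needed early in subunit assembly, was its most abundant gene through 6 days at 240, 122, 171 and 136 FPKM. Mrpl12, of the stalk that recruits translation factors and also reported to bind the mitochondrial RNA polymerase, stood at 123, 56.8, 104 and 120 FPKM. Mrpl42 stood at 189, 110, 129 and 131 FPKM. Mrpl36 had the deepest trough of all members, at 68.1, 20.1, 41.8 and 44.5 FPKM, with differences of -1.71 at 0 days and 1.02 from 0 to 6 days. Ndufs6, which overlaps Mrpl36 on the other strand, stood at 208, 117, 180 and 300 FPKM.

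Several large subunit genes left the common course by 1 or more on the log2 scale. Mrpl14, the binding site of the assembly factor MALSU1, was level at 0 days and higher at 6 and 10 days, at 64.2, 64.6, 98.2 and 180 FPKM, or 2.80-fold its control level at 10 days (95% counting interval 2.60 to 3.00). Tmem63b, which overlaps it on the other strand, stood at 24.4, 34.7, 33.9 and 49.1 FPKM. Mrpl54 had a like shape at 42.3, 39.6, 68.8 and 97.1 FPKM, 2.30-fold (2.09 to 2.52), though its small difference at 0 days took the other sign under another scaling. Mrpl27 was lowest in the control, at 54.7, 63.7, 79.6 and 103 FPKM, 1.88-fold (1.75 to 2.03); Eme1 on the other strand stood at 10.4 to 19.8 FPKM. These 3 were the highest of the mitochondrial set at 0 days relative to the control.

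Other large subunit genes did not come back. Mrpl15 stood at 76.6, 25.9, 35.9 and 29.1 FPKM, 0.380 of its control level at 10 days (95% counting interval 0.365 to 0.396). Mrpl39, which resembles a threonyl-tRNA synthetase but has no such activity, stood at 54.9, 22.7, 32.4 and 25.1 FPKM, a ratio of 0.457 (0.430 to 0.486). In both, the 6-day library was a small peak after the trough. Mrpl45, placed at the tunnel exit where the ribosome meets the inner membrane, stayed at its 0-day level, at 47.1, 25.5, 24.4 and 26.2 FPKM. Mrpl38 stood at 48.7, 40.4, 39.7 and 39.4 FPKM, the flattest course after 0 days. The least abundant mitochondrial member was Mrpl57 at 16.1, 10.0, 12.5 and 14.7 FPKM. Of the other low members, Mrpl55 stood at 33.0, 14.0, 27.0 and 28.7 FPKM, with the third largest step of the set from 0 to 6 days, and Mrpl44, which has the fold of an RNase III, at 35.3, 18.9, 29.0 and 33.2 FPKM.

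In the mitochondrial small subunit (13 genes by symbol) the median was -0.72 at 0 days against the control, 0.48 from 0 to 6 days and 0.30 from 6 to 10 days. By structure, Mrps30 and Mrps18a sit in the large subunit, and Mrps36 is now assigned to the oxoglutarate dehydrogenase complex; they were kept where their symbols put them. Mrps16 was the most abundant gene at 237, 137, 164 and 272 FPKM, and with Mrps34 and Mrpl14 it led the step from 6 to 10 days. Mrps34 stood at 78.3, 63.4, 82.4 and 153 FPKM, 1.95-fold its control level at 10 days (95% counting interval 1.85 to 2.07). Mapk8ip3, which overlaps Mrps34 on the other strand, stood at 7.07, 20.2, 10.7 and 12.6 FPKM. Mrps6, which shares its locus and strand with Slc5a3, stood at 44.0, 33.1, 71.5 and 89.3 FPKM, 2.03-fold (1.88 to 2.20), and had the largest step of the set from 0 to 6 days.

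Mrps27, a pentatricopeptide repeat protein that binds RNA, was the small subunit gene furthest below its control level, at 43.4, 16.3, 20.0 and 17.8 FPKM, a ratio of 0.411 (95% counting interval 0.379 to 0.445). Mrps14 stood at 50.1, 21.6, 31.2 and 24.5 FPKM, 2-fold lower at 10 days than in the control as deposited, a call lost under median-ratio (-0.82) and upper-quartile scaling (-0.91). Mrps9, at 68.5, 30.1, 35.2 and 39.7 FPKM, had with Mrps24 the smallest step of the small subunit from 0 to 6 days (0.22 in both). Mrps18b had the deepest trough of the small subunit at 102, 37.5, 65.1 and 77.9 FPKM, and came back in part. At 10 days against the control the small subunit median was 0.17 and that of the large subunit -0.25, both by symbol. The sign for the whole set thus depended on which symbols were counted. The small subunit value includes Mrps18a (0.60), Mrps30 (-0.03) and Mrps36 (0.26), and medians without these genes were not computed. The 22 genes whose proteins have a bacterial relative and the 13 found in mitochondria only, a split made after the values were seen, had medians of -0.82 and -0.77 at 0 days against the control and of 0.27 and 0.08 from 6 to 10 days.

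Of the other genes of the pathway, those that build cytosolic ribosomes parted from the ribosomal proteins. Of 42 ribosome biogenesis genes, all tested, 25 were 2-fold or more lower at 0 days than in the control and 30 at 10 days, with none higher (12.8% and 17.1% of all genes were lower), and medians of -1.06 and -1.27. After median-ratio scaling 16 were lower at 0 days and 25 at 10 days (9.48% and 13.1% of all genes). Heatr1, a small subunit processome protein, stood at 28.6, 7.02, 8.55 and 3.59 FPKM, and Ddx21, a nucleolar helicase, at 99.4, 30.5, 28.5 and 15.0 FPKM. Bop1, needed to process the large subunit RNA, stood at 114, 26.2, 32.5 and 22.9 FPKM. From 6 to 10 days, when 29 of 31 core cytosolic genes were higher, this list had a median of -0.41 with 34 of 42 genes below 0. The list of RNA polymerase I, which makes ribosomal RNA, and its factors also holds Polr2e, Polr2f, Polr2h and Polr2k, shared by all nuclear RNA polymerases, and Myc and Mycn, regulators of many other genes. Of its 13 genes 7 were lower at 0 days, Polr2h, Polr2k and Myc among them (53.8%, beside 12.8% of all genes, median -1.03). At 10 days 3 were lower (23.1%, beside 17.1%, median -0.48), and none was higher against the control. After median-ratio scaling 5 were lower at 0 days (38.5%, beside 9.48%) and 3 at 10 days (23.1%, beside 13.1%). Ubtf, which marks active ribosomal RNA genes, stood at 69.2, 24.9, 28.6 and 17.2 FPKM, and Rrn3, the initiation factor, at 80.2, 31.5, 29.1 and 22.1 FPKM.

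Of 29 cytosolic translation factors, 6 were lower at 0 days than in the control (20.7%, beside 12.8% of all genes) and 8 at 10 days (27.6%, beside 17.1%), with medians of -0.73 and -0.71 and none higher. After median-ratio scaling 5 were lower at 10 days (17.2%, beside 13.1% of all genes). Eif5a, which helps stalled ribosomes over prolines, stood at 979, 294, 526 and 515 FPKM, and Eif2s1, the phosphorylated subunit of eIF2, at 117, 42.4, 63.9 and 39.9 FPKM. Neither came back to its control level. At 10 days the median core ribosomal protein gene therefore lay above its control level, while the medians of these factors and of the biogenesis genes lay below theirs.

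Among partners of the mitochondrial ribosome, 5 of 15 translation factors and aminoacyl-tRNA synthetases were lower at 0 days (33.3%, beside 12.8% of all genes) and 5 at 10 days (beside 17.1%), with medians of -0.71 and -0.84. Of 19 assembly and RNA factors 3 were lower at 0 days, 15.8% and near the share of all genes, and 6 at 10 days (31.6%), or 3 after median-ratio scaling; their medians were -0.68 and -0.77. No gene of either list was 2-fold higher against the control. Tsfm, the exchange factor of the mitochondrial elongation factor Tu, stood at 60.7, 21.1, 18.8 and 27.2 FPKM, and Lrpprc, which stabilises mitochondrial messengers, at 29.3, 13.0, 12.1 and 7.80 FPKM. The list of 39 nuclear respiratory chain subunits holds genes whose proteins join the products of the mitochondrial ribosome. It also holds Sdha and Sdhc of complex II, which has no such product. Its medians were -0.71 at 0 days against the control, 0.39 from 0 to 6 days, 0.25 from 6 to 10 days and -0.02 at 10 days against the control. Those 4 values lie beside -0.78, 0.51, 0.21 and -0.13 of the mitochondrial ribosomal proteins. At 0 days 34 of the 39 were below their control level and 5 above it. Ndufa4l2 had the largest difference of the list, -2.53 from 0 to 6 days, and another course, at 52.7, 86.0, 14.1 and 21.3 FPKM. Uqcrq, a complex III subunit, stood at 422, 133, 350 and 525 FPKM, and Ndufs1, the largest subunit of complex I, at 82.1, 33.6, 38.3 and 25.7 FPKM.

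**Figure D4:**
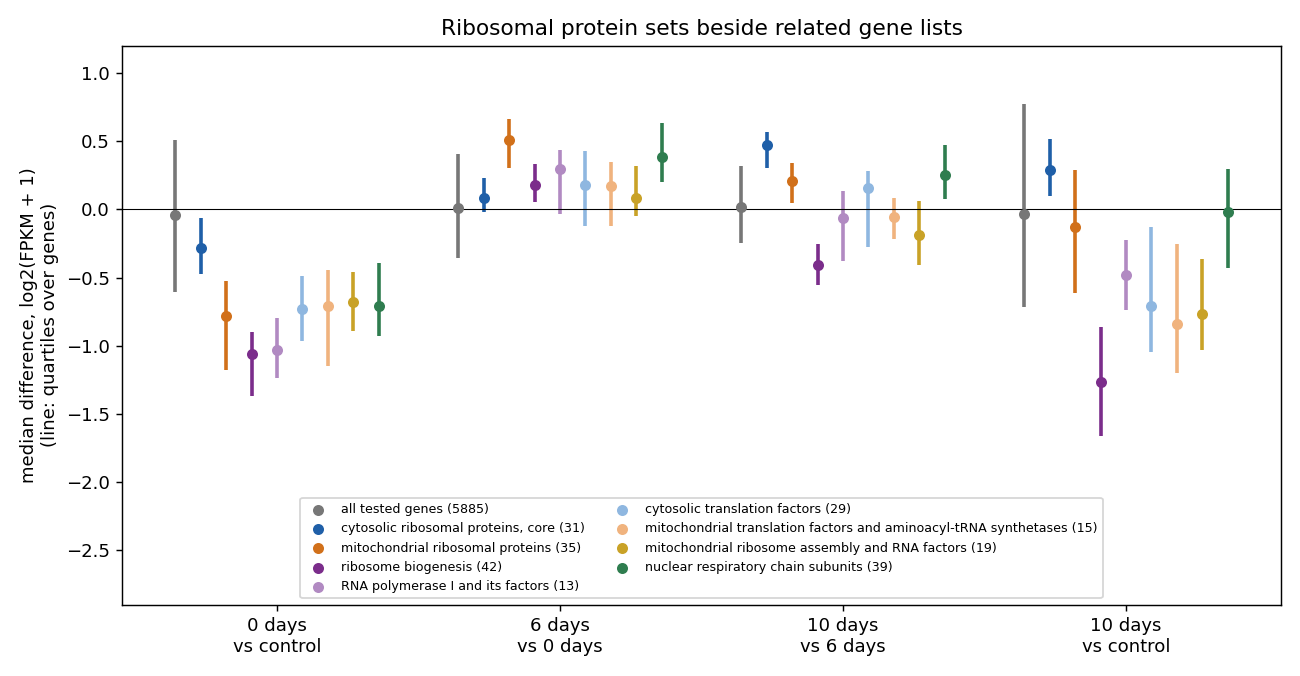
Median difference on log2(FPKM + 1) (points) and quartiles over genes (lines) of all tested genes, the ribosomal protein sets and 6 related lists in the 4 comparisons. At 10 days against the control the core cytosolic set is at 0.29 and ribosome biogenesis at -1.27; mitochondrial ribosomal proteins and respiratory chain subunits lie close together in each comparison.

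Differences went with transcript length in several comparisons across the whole table. From 6 to 10 days and at 10 days against the control they also went with base composition. At 0 days against the control, coding genes with transcripts of at most 600 bases had a median of -0.37, those up to 1000 bases -0.21 and those up to 1500 bases -0.26, near the -0.28 of core cytosolic genes, while transcripts over 3000 bases had 0.06. From 0 to 6 days the same classes had 0.15, 0.36 and 0.30, and transcripts over 3000 bases -0.16. Mitochondrial genes of 600 to 1000 and of 1000 to 1500 bases had -0.45 and -1.08 at 0 days and 0.63 and 0.53 from 0 to 6 days. The next values are those of the step from 6 to 10 days. Over tested protein-coding genes the median difference was -0.22 at a transcript GC content of 45% or less, -0.07 from 45% to 50%, 0.10 from 50% to 55% and 0.29 above 55%. Core cytosolic genes had medians of 0.35 (13 genes), 0.46 (8) and 0.55 (9) in the upper 3 classes, each above that of all genes in the class, and the 1 gene at or below 45%, Rpl15, was at -0.31. Mitochondrial genes had medians of 0.21 (4 genes), 0.08 (9), 0.16 (12) and 0.41 (10). Pearson's r of this difference with GC content, across genes that come from the same pair of libraries and are not replicates, was 0.61 over 31 core cytosolic genes, 0.47 over 35 mitochondrial genes and 0.37 over 5564 coding genes. With log transcript length it was -0.73, -0.36 and -0.28. At 10 days against the control, all tested protein-coding genes had medians of -0.35, -0.19, 0.11 and 0.33 in the same GC classes, from low to high. For core cytosolic, mitochondrial and all coding genes, r in that comparison was 0.44, 0.48 and 0.18 with GC content. With log transcript length it was -0.64, -0.51 and -0.15 there. Core cytosolic transcripts are short, with a median of 732 bases against 1219 for mitochondrial members and 2966 for all coding genes. The part of GC content and length in these differences was not tested.

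**Figure D5:**
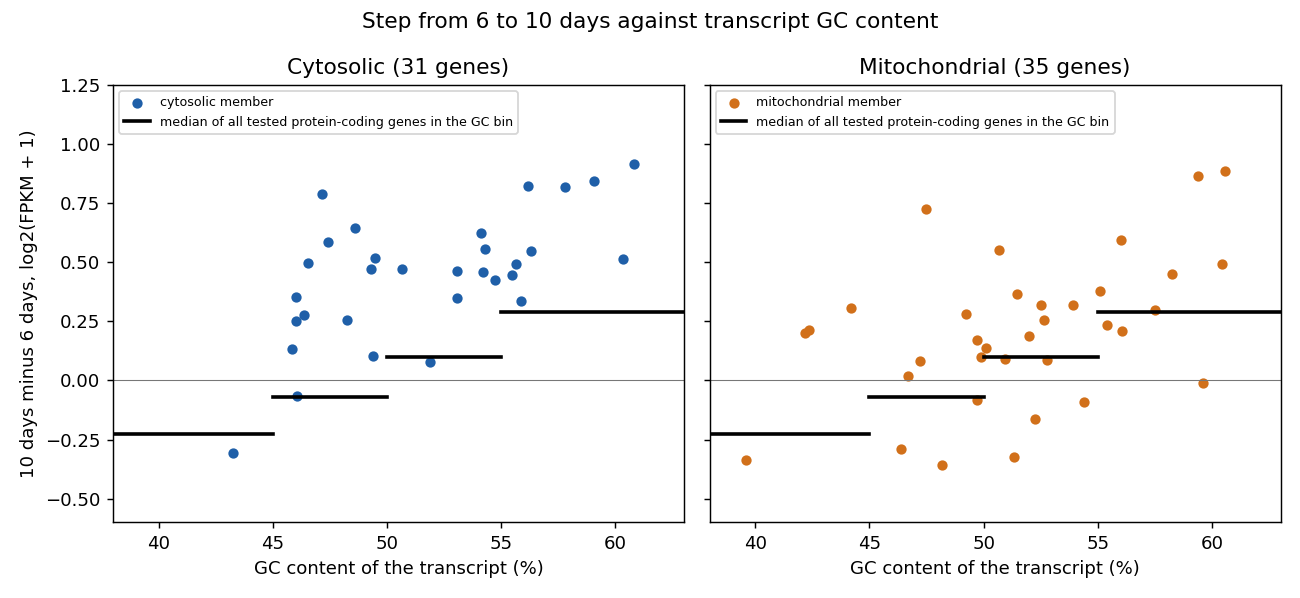
Difference from 6 to 10 days on log2(FPKM + 1) against the GC content of the transcript (%), 1 point per core cytosolic gene (left) or mitochondrial gene (right). Black lines are the medians of all tested protein-coding genes in 4 GC classes, from -0.22 to 0.29; most cytosolic points lie above them, and the mitochondrial points lie on both sides.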

How the data were processed

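Total RNA of the 4 embryoid body libraries was sequenced by Illumina methods, per the labels' protocols. The authors deposited FPKM values in 1 table, a column for each library, per the file headers. The submitters' processing notes name Trimmomatic, TopHat and Cufflinks, without versions, and the genome build mm10. The annotation, strand use and filters were not given in the sources used here. Since FPKM is relative to the library total, very abundant transcripts lower all other values, and Cufflinks divides reads that fit several genes by its model.

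The table had 10201 rows and 9997 symbols. Rows of 177 repeated symbols, none a member, were summed. Differences on log2(FPKM + 1) were computed among the 5885 symbols that reached 1 FPKM in any library. Depth was estimated from 1445 genes with 1 transcript of 800 bases or more. FPKM was multiplied by transcript length in kilobases, and the median of products inside a preset window of small values was taken as 1 fragment. The window held 126 to 148 values per library and bounds the depth that could be found. Whether values pile up at the worth of 1 fragment was not tested. Fold intervals are exact 95% intervals of the estimated fragments and cover counting error only. Positions, lengths and GC content came from GENCODE M21 on mm10, matched for all 74 members, and promoters from RefSeq.

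Members, gene lists and markers were chosen with earlier results of these data known. In each set the genes named depart by 1 or more from the set's median or are the 3 highest and 3 lowest per comparison. The 5 most and 5 least abundant, the paralogs, the pseudogenes and Rps19bp1 are named too. Of each related list at most 4 are given with their levels, from among those with the largest differences. Others, such as Rpl3, Rpl7, Rps2 and Rpl15, were chosen after their values were seen. Alternatives were pseudocounts of 0.1 and 0.5, no filter, a 5 FPKM filter, median-ratio and upper-quartile scaling, the highest row of a repeated symbol, core genes only, 1 subunit only and a 1.5-fold threshold. The steps were tested on simulated data. Tools were matplotlib 3.10.9, scipy 1.17.1, pandas 2.3.3, numpy 2.4.6 and Python 3.11.15.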

Additional observations from a re-analysis of the deposited data

How the results depend on the processing

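With no replicates, a value is said here to move when it differs from the main one by more than the counting error of the set's typical member, or a count by more than 1.5 times. Of 256 values recomputed under alternatives, 4 changed direction, all for the mitochondrial set at 10 days against the control: its median was 0.054 with median-ratio scaling and 0.17 with the small subunit alone (-0.13 as reported), and its summed FPKM was 1.12 and 1.05 times the control with median-ratio and upper-quartile scaling (0.990). All other moves kept their direction. For the cytosolic set in the order 0 days against control, 6 against 0 days, 10 against 6 days and 10 days against control, median-ratio scaling gave summed FPKM ratios of 0.934, 1.08, 1.43 and 1.45 and upper-quartile scaling 0.908, 1.10, 1.36 and 1.36, where the reported ones were 0.831, 1.08, 1.43 and 1.28. Cytosolic medians were -0.23 and 0.44 against the control at 0 and 10 days with median-ratio scaling, and -0.27, 0.12, 0.39 and 0.35 with upper-quartile scaling; both left 0 members 2-fold lower at 0 days. For the mitochondrial set, the median at 0 days was -0.61 and -0.65, the summed ratio there 0.638 and 0.620, and under upper-quartile scaling 1.46 and 1.16 in the next 2 steps; 2 genes were 2-fold lower at 10 days with median-ratio scaling, against 4. Core genes alone gave cytosolic medians of -0.28 and 0.29 against the control at 0 and 10 days, summed ratios of 0.835 and 1.07 in the first 2 comparisons, and counts of 0 lower in each, since the genes called were paralogs. Pseudocounts of 0.1 and 0.5 gave 2 cytosolic members lower at 0 days, and 0.1 gave 2 from 0 to 6 days; the cytosolic median at 10 days against the control was 0.28 with either, 0.24 without a filter and 0.28 at a 5 FPKM filter, which gave -0.36 at 0 days. The large subunit alone gave cytosolic medians of -0.43 at 0 days and 0.44 from 6 to 10 days, a mitochondrial median of -0.25 at 10 days against the control and a mitochondrial minus cytosolic difference of -0.51 there; the small subunit alone gave -0.25, 0.12 and 0.49 for the first 3 cytosolic comparisons, 0.30 for the mitochondrial step from 6 to 10 days and -0.087 for the last difference. At 1.5-fold, 9 and 2 cytosolic members were lower in the first 2 comparisons, and 24 and 10 mitochondrial genes at 0 and 10 days against the control. The share of all genes past 1.5-fold was not computed, so these counts have no general rate beside them. Subunits were taken by symbol and compared by medians only. Depth limits Rpl3l, Rpl31-ps12 and Rps15a-ps6, the members with the fewest fragments. The causes of these moves were not tested.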
